A study of Mus musculus with 18 samples.

Results

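The arginine, nitric oxide and polyamine enzymes are a group of 9 genes out of the 26538 in the deposited expression table, taken by their symbols: Nos2, Ass1 and Asl on the nitric oxide side, the arginine carrier Slc7a2, and Arg1, Arg2, Odc1, Azin1 and Azin2 on the arginase and polyamine side. They were chosen by pathway with earlier results of these data known, among them the level of Nos2 after cryo-thermal therapy with anti-PD-1 set against cryoablation with anti-PD-1, so that comparison is given here as a description, its counts past a threshold support nothing, and the level of Nos2 in the tumours with cryo-thermal therapy and anti-PD-1 is no independent evidence in other comparisons that use them. RNA was sequenced from 18 mouse tumours that the labels call untreated and resected after the therapy. They are taken here to come from animals in which another tumour was ablated. The 6 groups of 3 tumours were cryo-thermal therapy with anti-PD-1, cryo-thermal therapy, radiofrequency ablation with anti-PD-1, radiofrequency ablation, cryoablation with anti-PD-1, and cryoablation. Cryoablation freezes tissue, radiofrequency ablation heats it with an alternating current, cryo-thermal therapy joins freezing with heating, and anti-PD-1 is an antibody against an inhibitory receptor of T cells. Every group had an ablation, and an animal without one was not analysed here. Tumour line, mouse strain, age and collection day are not given in the sources used here. Nor do the labels say that the tumours of a group are from different animals. The p-values therefore reflect the spread among these samples alone, and that spread may be technical.

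Arginine enters cells through cationic amino acid carriers such as Slc7a2 and is then used by competing enzymes. Nitric oxide synthases turn it into nitric oxide and citrulline, and argininosuccinate synthase (Ass1) and argininosuccinate lyase (Asl) turn the citrulline back into arginine. Arginases turn arginine into urea and ornithine, and ornithine decarboxylase (Odc1) makes the first polyamine from ornithine. In mouse myeloid cells the inducible synthase Nos2 is known as a target of interferon gamma and microbial products, and Arg1 as a target of interleukins 4 and 13, and both are known in myeloid cells of tumours.

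Levels are FPKM (fragments per kilobase of gene and depth of the library), which are per length and can be set side by side between genes. Sequencing depth, estimated from the steps between low values, was put at 0.977 to 1.013 times that of cryoablation replicate 1. Only ratios of low values near 1 entered this estimate, so it could not have shown a large difference in depth. Of the 9 genes, 9 had a mean of at least 0.5 FPKM over the 18 tumours and entered the fit, with 12587 genes in all. Of 7 epithelial markers 4 passed the filter, with Cdh1 at 1.75 to 5.19 FPKM in every tumour, while Krt18 was at 0 in 6 of 18 tumours and Cldn7 at 0 in 16. Of 7 fibroblast markers 7 passed, with a summed level of 674 to 2062 FPKM. Hair follicle and keratinocyte genes stood highest in 3 tumours, cryo-thermal with anti-PD-1 replicate 1 and cryoablation with anti-PD-1 replicates 1 and 2, with mean log2 levels of 4.27, 3.66 and 3.48, against at most 2.70 in the other 15. Results that rest on these 3 are given with and without them.

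Nos2 (NCBI gene 18126), the inducible nitric oxide synthase, measured 15.9, 21.3 and 23.5 FPKM after cryo-thermal therapy with anti-PD-1. It measured 14.8, 5.30 and 3.82 FPKM after cryo-thermal therapy. In the other 12 tumours it ran from 1.79 to 7.56 FPKM, with the highest values in radiofrequency ablation with anti-PD-1 replicate 3 and in cryoablation with anti-PD-1 replicate 1, at 6.89 FPKM. The 3 tumours given cryo-thermal therapy with anti-PD-1 were above each of the other 15, and cryo-thermal replicate 1 came next. The means were 20.2 ± 3.94 FPKM (SD, n = 3, as for the means below) after cryo-thermal therapy with anti-PD-1, 7.96 ± 5.93 after cryo-thermal therapy, 4.48 ± 2.67 after radiofrequency ablation with anti-PD-1 and 3.42 ± 0.948 after radiofrequency ablation. They were 3.64 ± 2.82 FPKM after cryoablation with anti-PD-1 and 3.07 ± 1.24 after cryoablation, so that the groups below the highest lay within each other's spread.

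Ass1 (11898), which joins citrulline to aspartate, measured 26.0, 33.5 and 43.7 FPKM after cryo-thermal therapy with anti-PD-1 and 20.0, 15.0 and 9.52 after cryo-thermal therapy. After radiofrequency ablation with anti-PD-1 it measured 10.7, 9.05 and 12.8 FPKM, and after radiofrequency ablation 5.54, 8.32 and 5.18. It had 17.3, 6.85 and 7.24 FPKM after cryoablation with anti-PD-1 and 2.74, 4.21 and 4.97 after cryoablation. Within each ablation the tumours given anti-PD-1 were above those without it, with no overlap, and the 3 cryoablation tumours were the lowest of the 18. The highest level was 16.0 times the lowest, the widest range of the 9 genes. Asl (109900), the next enzyme, had 8.55 to 12.5 FPKM over all tumours, a range of 1.46 times, the narrowest of the 9. Its means were 11.8 ± 0.768 FPKM after cryo-thermal therapy with anti-PD-1, 11.0 ± 0.719 after cryo-thermal therapy and 11.2 ± 0.851 after cryoablation, and 9.32 to 9.93 in the other 3 groups.

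**Figure D1:**
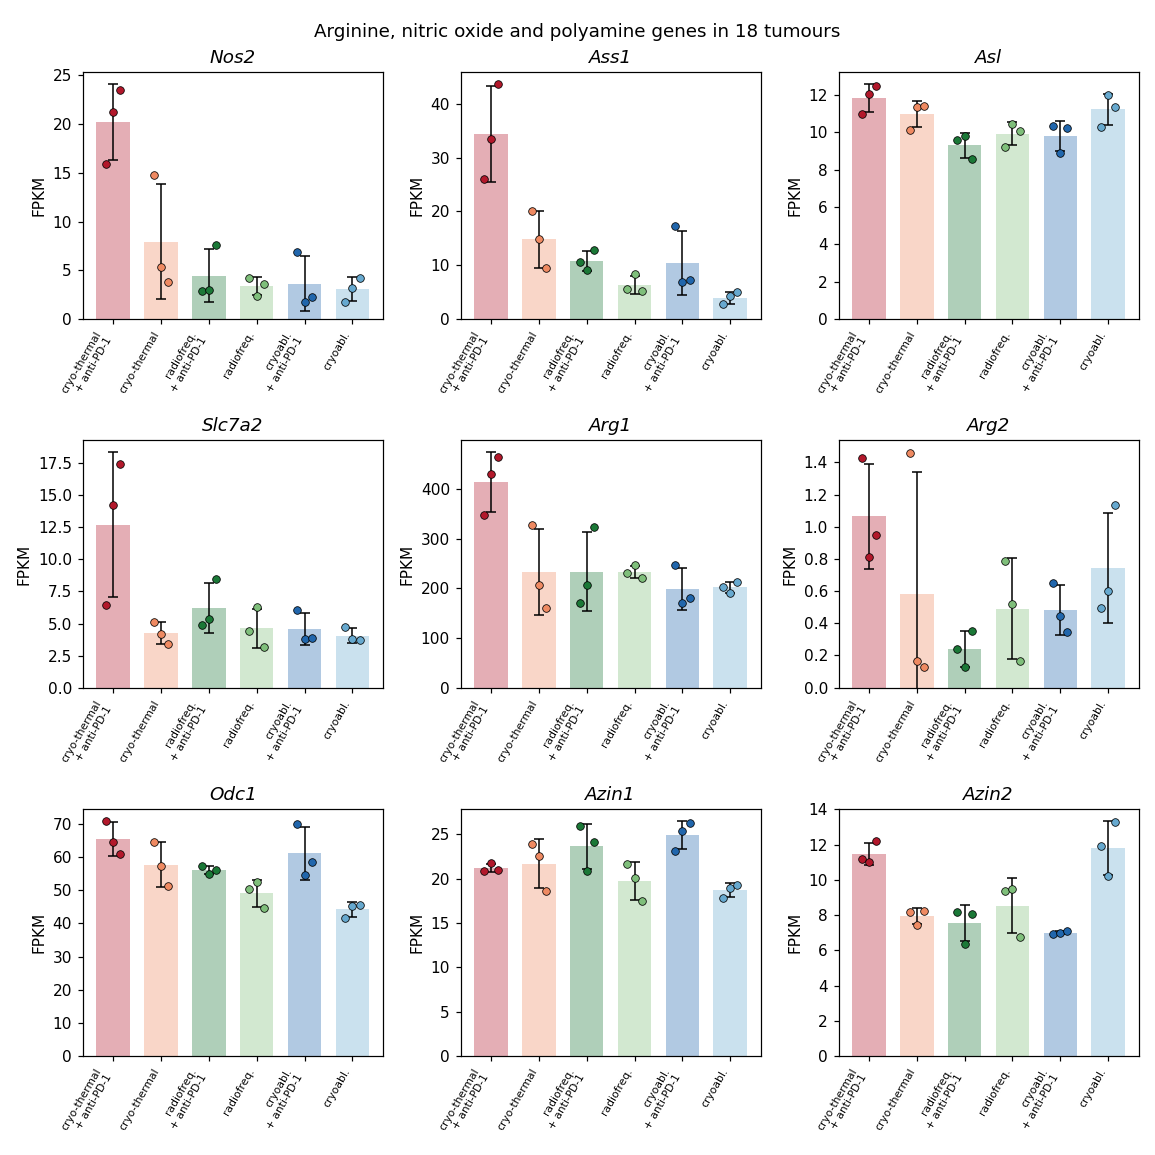
Level of each of the 9 genes in FPKM (vertical axes, linear from 0) in the 6 groups. Points are tumours, bars the mean and whiskers the SD over 3 tumours, and the Arg2 whisker after cryo-thermal therapy is drawn only above 0. Nos2, Ass1 and Arg1 were highest in the 3 tumours given cryo-thermal therapy with anti-PD-1, and Asl stayed between 8.55 and 12.5 FPKM.

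Slc7a2 (11988), a carrier of arginine, lysine and ornithine, measured 6.46, 14.3 and 17.4 FPKM after cryo-thermal therapy with anti-PD-1 and 5.15, 4.15 and 3.43 after cryo-thermal therapy. In the other 12 tumours it ran from 3.21 FPKM, in radiofrequency ablation replicate 3, to 8.46 FPKM, in radiofrequency ablation with anti-PD-1 replicate 3. Of the 3 highest-group tumours, replicates 2 and 3 stood above every other tumour, while replicate 1, the one with high hair follicle RNA, lay among the radiofrequency values.

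Arg1 (11846), the cytosolic arginase, was by far the most abundant of the 9, 221st of the 26538 genes by mean level, with a mean of 253 FPKM over all tumours. It measured 348, 431 and 465 FPKM after cryo-thermal therapy with anti-PD-1 and 329, 207 and 161 after cryo-thermal therapy. The radiofrequency values were 171, 208 and 323 FPKM with anti-PD-1 and 231, 247 and 222 without it. The cryoablation values were 247, 170 and 180 FPKM with anti-PD-1 and 204, 191 and 213 without it. As for Nos2, the 3 tumours given cryo-thermal therapy with anti-PD-1 were the 3 highest of the 18, and cryo-thermal replicate 1 was the next. The means of the other 5 groups lay between 199 and 234 FPKM, closer together than the SD within 3 of them.

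Arg2 (11847), the mitochondrial arginase, was the least abundant of the 9, at 0.127 to 1.46 FPKM. Its 2 highest values were 1.46 FPKM in cryo-thermal replicate 1 and 1.43 in cryo-thermal with anti-PD-1 replicate 1, and the other cryo-thermal tumours had 0.165 and 0.130 FPKM. In the RefSeq annotation of GRCm38.p6 Arg2 overlaps the gene Vti1b, and Arg1, Odc1, Azin1 and Azin2 overlap non-coding genes. The strand of the counts was not given in the sources used here, so reads shared with those genes cannot be told apart.

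Odc1 (18263), which makes putrescine, measured 71.0, 64.6 and 61.0 FPKM after cryo-thermal therapy with anti-PD-1 and 64.7, 57.3 and 51.4 after cryo-thermal therapy. Its means were 56.1 ± 1.27 FPKM after radiofrequency ablation with anti-PD-1, 49.1 ± 4.06 after radiofrequency ablation, 61.1 ± 7.97 after cryoablation with anti-PD-1 and 44.3 ± 2.23 after cryoablation. Azin1 (54375) and Azin2 (242669) encode antizyme inhibitors, which resemble ornithine decarboxylase without its activity and keep antizyme from sending it to breakdown. Azin1 had 23.1, 25.4 and 26.3 FPKM after cryoablation with anti-PD-1, against 17.9, 18.9 and 19.3 after cryoablation, and 17.5 to 25.9 elsewhere.

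Azin2 was highest after cryoablation, at 11.8 ± 1.55 FPKM, and with the cryo-thermal combination. It measured 11.2, 11.0 and 12.2 FPKM after cryo-thermal therapy with anti-PD-1 and 8.20, 7.43 and 8.20 after cryo-thermal therapy. It measured 6.94, 7.00 and 7.09 FPKM after cryoablation with anti-PD-1 and 11.9, 10.2 and 13.3 after cryoablation. The tumours given anti-PD-1 were thus above the others with cryo-thermal therapy and below them with cryoablation, with no overlap in either case. With radiofrequency ablation the values overlapped, at 8.17, 6.35 and 8.06 FPKM with anti-PD-1 and 9.38, 9.50 and 6.73 without it.

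Promoters were found in the RefSeq table of GRCm38.p6 for 2 of the 9 genes, Ass1 and Odc1, both past the threshold and higher after cryo-thermal therapy than after cryoablation. The 250 bases before the annotated start are shown, with matches to the motifs searched in capitals. Those of Ass1 are chr2:31470020-31470269 and those of Odc1 chr12:17544623-17544872, both on the plus strand.
Ass1: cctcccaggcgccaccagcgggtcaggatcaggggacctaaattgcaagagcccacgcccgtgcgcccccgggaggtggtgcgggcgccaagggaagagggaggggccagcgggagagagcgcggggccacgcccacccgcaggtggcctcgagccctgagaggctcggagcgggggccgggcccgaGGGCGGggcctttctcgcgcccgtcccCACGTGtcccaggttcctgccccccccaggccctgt
Odc1: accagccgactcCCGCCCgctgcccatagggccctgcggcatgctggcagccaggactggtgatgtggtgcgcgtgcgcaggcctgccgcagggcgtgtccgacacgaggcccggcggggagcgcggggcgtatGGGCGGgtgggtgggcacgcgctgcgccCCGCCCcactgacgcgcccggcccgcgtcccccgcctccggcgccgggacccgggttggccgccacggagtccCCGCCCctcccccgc
Both windows are rich in G and C, 75.6% in Ass1 and 80.0% in Odc1. The Ass1 window holds 1 E-box (CACGTG, the same on both strands), 36 to 31 bases before the start, and 1 GC box (GGGCGG on either strand), 63 to 58 bases before it. The Odc1 window holds 4 GC boxes and 0 E-boxes. Of 32851 such windows in the table, 6.02% hold an E-box and 32.7% a GC box. The interferon gamma motif GAS (TTCNNNGAA), the core of the interferon response element (GAAA, any 2 bases, then GAAA), the cyclic AMP core (TGACGT) and TATAAA were searched on both strands and had 0 matches in either window. They are found in 7.02%, 2.98%, 6.47% and 12.4% of the windows. The matches are descriptions of letters and do not overlap each other.

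Set against each other, some transcripts of the 2 sides changed order between groups, and the 2 pairs given here were picked because they did. Nos2 averaged 20.2 FPKM and Azin2 11.5 FPKM after cryo-thermal therapy with anti-PD-1, against 3.07 and 11.8 FPKM after cryoablation. Ass1 averaged 34.4 FPKM and Azin1 21.2 FPKM after cryo-thermal therapy with anti-PD-1, against 3.97 and 18.7 FPKM after cryoablation. Against Odc1 the order did not change, with Nos2 at most 38.5% and Ass1 at most 71.7% of its level in any tumour. Arg1 stayed above Nos2 in every tumour, and the level of Nos2 was 4.85 ± 0.26% of that of Arg1 after cryo-thermal therapy with anti-PD-1. It was 3.14 ± 1.17% after cryo-thermal therapy, 1.82 ± 0.468% after radiofrequency ablation with anti-PD-1, 1.48 ± 0.455% after radiofrequency ablation, 1.69 ± 0.949% after cryoablation with anti-PD-1 and 1.51 ± 0.575% after cryoablation. The 3 tumours given cryo-thermal therapy with anti-PD-1, at 4.55 to 5.05%, lay above each of the others, of which the highest was cryo-thermal replicate 1 at 4.49%.

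The level of Ass1 was 8.22 ± 1.03% of that of Arg1 after cryo-thermal therapy with anti-PD-1, 6.40 ± 0.716% after cryo-thermal therapy and 4.85 ± 1.22% after radiofrequency ablation with anti-PD-1. It was 2.70 ± 0.581% after radiofrequency ablation, 5.01 ± 1.71% after cryoablation with anti-PD-1 and 1.96 ± 0.540% after cryoablation. Against Asl, Ass1 was at 288 ± 57.2% after cryo-thermal therapy with anti-PD-1, 137 ± 57.0% after cryo-thermal therapy and 35.1 ± 8.55% after cryoablation. Ass1 was thus below Asl in every cryoablation and radiofrequency tumour without anti-PD-1, where it ran from 26.5 to 79.5% of Asl, and above it in the 3 tumours with cryo-thermal therapy with anti-PD-1. These ratios join genes chosen with the data in view and carry no test.

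**Figure D2:**
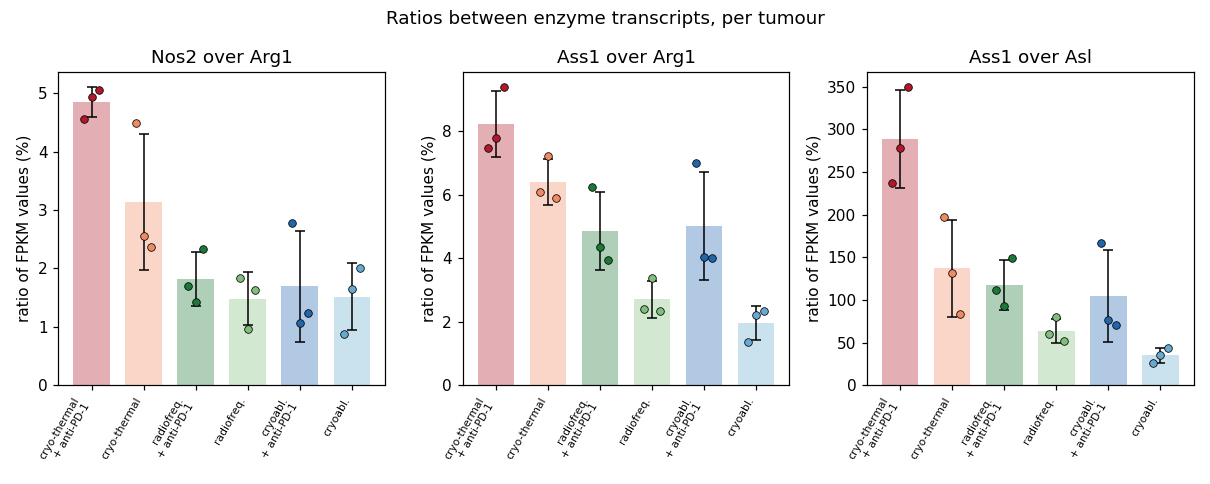
Ratio of the FPKM of 1 gene to that of another in percent (vertical axes, from 0), for Nos2 over Arg1, Ass1 over Arg1 and Ass1 over Asl, in the 6 groups. Points are tumours, bars the mean and whiskers the SD over 3 tumours. The 3 tumours with cryo-thermal therapy with anti-PD-1 had Nos2 at 4.55 to 5.05% of Arg1.

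**Figure D3:**
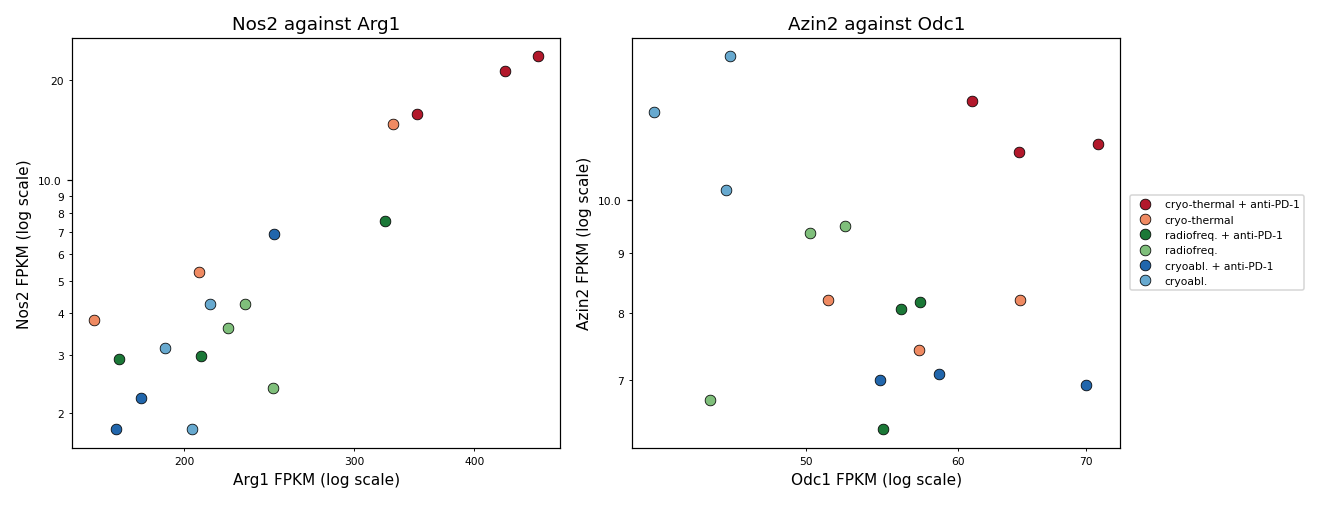
Nos2 against Arg1 and Azin2 against Odc1, in FPKM on logarithmic axes, 1 point per tumour and 1 colour per group. Tumours with cryo-thermal therapy with anti-PD-1 were highest in both Nos2 and Arg1. Cryoablation tumours combined high Azin2, 10.2 to 13.3 FPKM, with low Odc1.

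With anti-PD-1 given in both groups, cryo-thermal therapy was set against cryoablation. On the log2(FPKM + 1) scale of the fit, Nos2 was higher by 2.34 (SE 0.45), Ass1 by 1.71 (SE 0.32), Slc7a2 by 1.22 (SE 0.29), Arg1 by 1.06 (SE 0.24) and Azin2 by 0.64 (SE 0.12). Asl had 0.25 (SE 0.08), Arg2 0.47 (SE 0.25), Odc1 0.10 (SE 0.10) and Azin1 -0.22 (SE 0.10). The groups did not overlap in 7 genes that were higher, where 15.5% of all genes tested were higher without overlap, and in 1 that was lower, Azin1, where 10.4% of all genes were lower without overlap. Of the 9, 5 were past the limma threshold and higher, against 4.06% of all genes in either direction, 3.24% higher and 0.818% lower. Without the 3 tumours with high hair follicle RNA the count was 3. It was 0 without replicate 2 or 3 of either group. Since this contrast was known when the genes were chosen, nothing is read from these counts. The 8 T and NK cell markers had a summed level of 62.6 to 66.7 FPKM after cryo-thermal therapy with anti-PD-1 and 8.46 to 32.5 after cryoablation with anti-PD-1, and the 9 macrophage markers had 1578 to 2306 and 1151 to 1535 FPKM in the same order. Of these markers 5 T and NK genes and 0 macrophage genes were past the threshold. In bulk tumours more cells of a type and more RNA per cell cannot be told apart.

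Against radiofrequency ablation with anti-PD-1, cryo-thermal therapy with anti-PD-1 had higher Nos2, Ass1 and Azin2. Nos2 was higher by 2.04 on the log2 scale (SE 0.45), given with no p because its level in these tumours was known when it was chosen. Ass1 rose by 1.56 (SE 0.32, limma adjusted p = 0.0386) and Azin2 by 0.55 (SE 0.12, limma adjusted p = 0.0397). Ass1 and Azin2 passed, where 1.31% of all genes did, 0.818% higher and 0.493% lower. Nos2 was past the threshold too but is left out of that reading. Slc7a2 had 0.86 (SE 0.29, limma adjusted p = 0.144), Arg1 0.86 (SE 0.24, limma adjusted p = 0.0861), Asl 0.32 (SE 0.08, limma adjusted p = 0.0647) and Arg2 0.73 (SE 0.25, limma adjusted p = 0.148), and none of them passed. Values of 7 genes, Nos2, the arginases and Odc1 among them, were higher with no overlap, where 11.8% of all genes were higher and 11.1% lower without overlap. T and NK markers summed to 62.6 to 66.7 FPKM after cryo-thermal therapy with anti-PD-1 and 13.6 to 41.8 after radiofrequency ablation with anti-PD-1, with 2 of 7 tested past the threshold, and macrophage markers to 1578 to 2306 and 1449 to 1529 FPKM.

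These calls depended on single tumours. Nos2 is followed among them as a description only, since its level in these tumours was known when it was chosen. For Nos2 and Azin2 the call ended without any 1 of the 6 tumours (log2 fold changes 1.85 to 2.41 and 0.45 to 0.61), and for Ass1 without any but cryo-thermal with anti-PD-1 replicate 1 (1.38 to 1.74, highest limma adjusted p = 0.161). Without that replicate Slc7a2 passed, at 1.25 (limma adjusted p = 0.0337). Without the tumours with high hair follicle RNA, Nos2, Ass1 and Slc7a2 passed and Azin2 did not (0.57, limma adjusted p = 0.0720). With the liver level as a covariate 0 genes passed, though the folds were 2.04 for Nos2, 1.56 for Ass1 and 0.55 for Azin2, as before (limma adjusted p = 0.0542 for Ass1). With the macrophage level 0 passed, with 1.82 for Nos2, 1.36 for Ass1 and 0.57 for Azin2. With a pseudocount of 0.1 Nos2 was no longer past the threshold, at 2.28.

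Without the antibody, cryo-thermal therapy against cryoablation moved Ass1 and Odc1 up and Azin2 down, while the synthase Nos2 and both arginases did not pass. Ass1 averaged 14.8 ± 5.24 FPKM after cryo-thermal therapy and 3.97 ± 1.13 after cryoablation (log2 fold change 1.64, SE 0.32, limma adjusted p = 0.00647). Odc1 averaged 57.8 ± 6.66 and 44.3 ± 2.23 FPKM in the same order (0.37, SE 0.10, limma adjusted p = 0.0213). Azin2 averaged 7.95 ± 0.443 FPKM after cryo-thermal therapy and 11.8 ± 1.55 after cryoablation (-0.51, SE 0.12, limma adjusted p = 0.0118). These 3 of 9 genes stand beside 15% of all genes past the threshold, 8.01% higher and 6.96% lower, and values did not overlap in the same 3 genes, where 17.7% of all genes were higher and 17.8% lower without overlap. Nos2 had 0.99 (SE 0.45, limma adjusted p = 0.148), and Arg1 averaged 232 ± 86.6 FPKM after cryo-thermal therapy and 202 ± 10.9 after cryoablation.

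The Ass1 call held without any 1 tumour, with 1.41 to 1.91. Odc1 did not pass without cryo-thermal replicate 1 (0.29), cryo-thermal replicate 2 (0.37) or cryoablation replicate 1 (0.33), with a highest limma adjusted p = 0.117. Azin2 did not pass without cryo-thermal replicate 2 (-0.47), cryoablation replicate 1 (-0.50) or cryoablation replicate 3 (-0.43), with a highest limma adjusted p = 0.0538, and Azin1 passed at 0.30 without cryo-thermal replicate 3 (limma adjusted p = 0.0375). In a fit of these 2 groups alone Odc1 had 0.37 and did not pass (limma adjusted p = 0.0530). With the macrophage, the erythroid or the liver level as a covariate 0 of the 9 genes passed. Ass1 then had 1.09, 0.96 and 1.502, Odc1 0.28, 0.24 and 0.27, and Azin2 -0.46, -0.62 and -0.52 in that order. For Azin2 the limma adjusted p was 0.191, 0.261 and 0.413. The erythroid level itself differed between these groups, with a mean log2 level of 3.09 ± 1.38 after cryo-thermal therapy and 6.33 ± 0.238 after cryoablation.

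Several cell types moved in this comparison. Of 9 macrophage markers 4 rose, with sums of 1482 to 2547 FPKM after cryo-thermal therapy and 1066 to 1594 after cryoablation, and 7 of 7 T and NK genes tested rose, with sums of 27.5 to 59.5 and 6.33 to 9.60 FPKM. Erythroid genes fell in 5 of 5 cases, with sums of 23.6 to 210 FPKM after cryo-thermal therapy and 557 to 772 after cryoablation. Of 6 neutrophil genes tested 4 fell, with sums of 15.9 to 57.9 FPKM after cryo-thermal therapy and 136 to 300 after cryoablation. Liver genes, which are of interest because liver makes much Arg1, Ass1 and Asl for the urea cycle, fell in 3 of 3 genes tested, with sums over 8 genes of 0.524 to 2.44 FPKM after cryo-thermal therapy and 8.28 to 27.1 after cryoablation. Alb, the albumin gene, averaged 0.297 ± 0.503 FPKM after cryo-thermal therapy and 8.48 ± 4.96 after cryoablation. The liver enzymes Cps1 and Otc were at 0 in 10 and 13 of 18 tumours and reached at most 0.192 and 0.0378 FPKM.

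**Figure D4:**
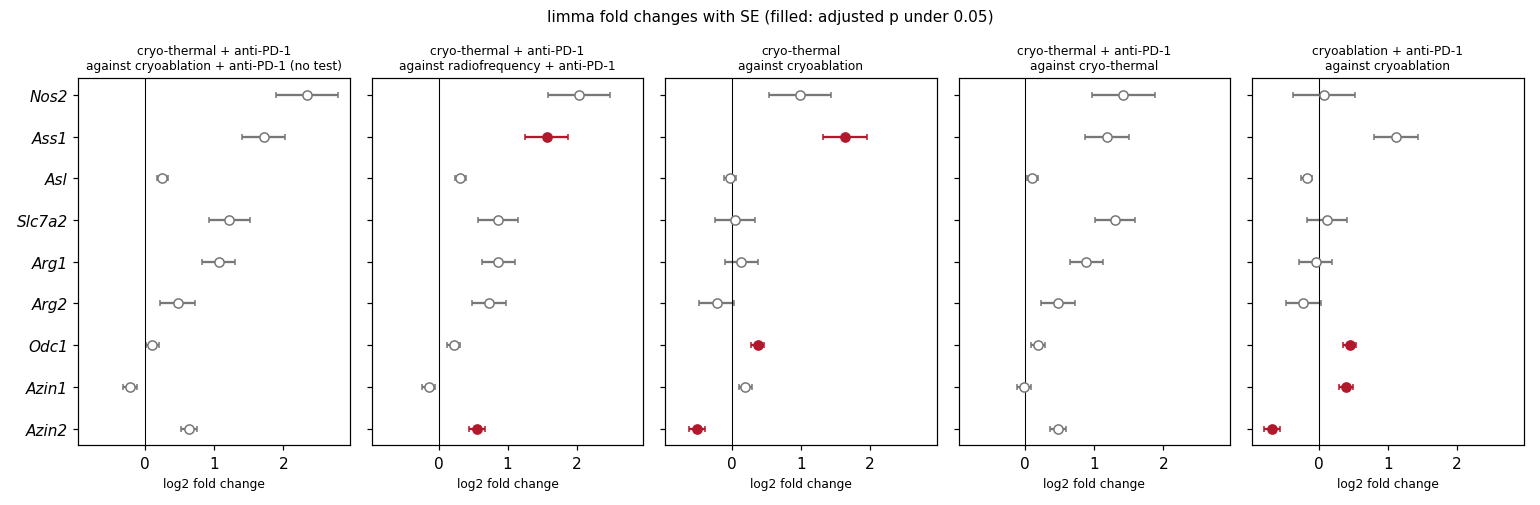
Fold changes of the 9 genes (horizontal axes, log2(FPKM + 1) scale, 5 comparisons), with SE from limma as whiskers and filled points where the adjusted p was under 0.05, except in the first panel and for Nos2 in the second, which are shown without a test. Odc1 rose after cryo-thermal therapy against cryoablation, and Azin2 had a log2 fold change of -0.67 when anti-PD-1 was added to cryoablation and 0.48 when it was added to cryo-thermal therapy.

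In the other 3 comparisons between ablations, 0 of the 9 genes passed limma. Cryo-thermal therapy against radiofrequency ablation had Ass1 at 1.08 (SE 0.32, limma adjusted p = 0.262), higher with no overlap, and Odc1 at 0.23 (SE 0.10, limma adjusted p = 0.333), where 2 of 9 genes had an unadjusted p under 0.05 and 0.00794% of all genes passed. Of all genes 8.08% were higher and 7.59% lower without overlap. Radiofrequency ablation against cryoablation had 1 gene with an unadjusted p under 0.05, Azin2 at -0.43 (SE 0.12, limma adjusted p = 0.152), and 0.00794% of all genes past the threshold. Ass1 and Arg1 were higher and Azin2 lower without overlap, where 10.6% of all genes were higher and 12.2% lower. Radiofrequency ablation with anti-PD-1 against cryoablation with anti-PD-1 had 0 genes with an unadjusted p under 0.05, and 0% of all genes passed. Values overlapped in all 9, where 6.03% of all genes were higher and 3.37% lower without overlap.

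Adding anti-PD-1 to cryoablation changed 3 of the 5 genes of the arginase and polyamine side, not all in 1 direction, and neither arginase passed. Odc1 rose (61.1 ± 7.97 FPKM after cryoablation with anti-PD-1 and 44.3 ± 2.23 after cryoablation, log2 fold change 0.45, SE 0.10, limma adjusted p = 0.027), Azin1 rose (24.9 ± 1.62 and 18.7 ± 0.754 FPKM, 0.39, SE 0.10, limma adjusted p = 0.0368) and Azin2 fell (7.01 ± 0.0751 and 11.8 ± 1.55 FPKM, -0.67, SE 0.12, limma adjusted p = 0.0135). These 3 of 9 genes compare with 4.31% of all genes, 1.79% higher and 2.53% lower. Values did not overlap in these and in Ass1, where 13.6% of all genes were higher and 18% lower without overlap. Ass1 had 1.12 (SE 0.32, limma adjusted p = 0.0569) and Nos2 and Arg1 averaged 3.64 ± 2.82 and 199 ± 42.1 FPKM after cryoablation with anti-PD-1, against 3.07 ± 1.24 and 202 ± 10.9 after cryoablation. Without cryoablation with anti-PD-1 replicate 1 none of the 3 passed, and Odc1 had 0.35, Azin1 0.45 and Azin2 -0.66. The same held without cryoablation replicate 1 (0.41, 0.36 and -0.66) and without its replicate 3 (0.47, 0.42 and -0.59), and Azin1 did not pass without any 1 of the 6 tumours, with a highest limma adjusted p = 0.168. The 2 tumours with high hair follicle RNA in this group leave 1 when removed, and the count was then 0 by limma, which assumes that the lone tumour varies like the others.

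Several marker lists separated these groups too. Erythroid genes fell in 3 of 5 cases, with sums of 53.0 to 104 FPKM after cryoablation with anti-PD-1 and 557 to 772 after cryoablation. Fibroblast genes, of which 1 of 7 fell, summed to 980 to 1255 FPKM with anti-PD-1 and 1556 to 1972 without it. Neutrophil genes summed to 37.5 to 95.7 FPKM with anti-PD-1 and 136 to 300 without it, skeletal muscle genes to 46.5 to 59.7 and 11.1 to 18.1, and epithelial genes to 5.32 to 5.91 and 3.67 to 4.17, with 0 genes of these 3 lists past the limma threshold. With the erythroid level as a covariate 0 of the 9 genes passed, and Odc1 had 0.32, Azin1 0.28 and Azin2 -0.78. The part of the fibroblast, neutrophil, skeletal muscle and epithelial levels in these changes was not tested.

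Adding anti-PD-1 to radiofrequency ablation gave 0 of 9 genes past limma, where 0.0477% of all genes passed, 0.0318% higher and 0.0159% lower. Ass1 had 0.70 (SE 0.32, limma adjusted p = 0.409) and Azin1 0.25 (SE 0.10, limma adjusted p = 0.342), the 2 genes with an unadjusted p under 0.05. Ass1 and Odc1 were higher with no overlap, where 7.66% of all genes were and 7.19% were lower.

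Adding anti-PD-1 to cryo-thermal therapy gave higher values with no overlap in Ass1, Slc7a2, Arg1 and Azin2. Nos2 did so too, as a description, since its level with the antibody was known when it was chosen. Of all genes 10.6% were higher and 9.2% lower without overlap, and 0 of the 9 passed limma. The log2 fold change of Nos2 was 1.42 (SE 0.45), given with no p. Those of the others were 1.19 for Ass1 (SE 0.32, limma adjusted p = 0.117), 1.30 for Slc7a2 (SE 0.29, limma adjusted p = 0.0696), 0.89 for Arg1 (SE 0.24, limma adjusted p = 0.119) and 0.48 for Azin2 (SE 0.12, limma adjusted p = 0.097). Ass1, Slc7a2, Arg1 and Azin2 had an unadjusted limma p under 0.05, and 0.373% of all genes passed, 0.246% higher and 0.127% lower. Arg1 passed at 1.17 (limma adjusted p = 0.0318) when cryo-thermal replicate 1, which had the most Nos2 and Arg1 of its group, was left out, and without cryo-thermal with anti-PD-1 replicate 1 Slc7a2 passed at 1.69 (limma adjusted p = 0.0217). Macrophage markers had sums of 1578 to 2306 FPKM after cryo-thermal therapy with anti-PD-1 and 1482 to 2547 after cryo-thermal therapy, and T and NK markers 62.6 to 66.7 and 27.5 to 59.5 FPKM, with 0 of 9 and 0 of 7 past the threshold.

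Averaged over the 3 ablations, anti-PD-1 raised Ass1 by 1.00 (SE 0.18, limma adjusted p = 0.00755), Slc7a2 by 0.60 (SE 0.17, limma adjusted p = 0.0379), Odc1 by 0.27 (SE 0.06, limma adjusted p = 0.0107) and Azin1 by 0.21 (SE 0.06, limma adjusted p = 0.0328). These 4 of 9 genes stand beside 10% of all genes, 5.28% higher and 4.75% lower. Nos2 had 0.58 (SE 0.26), given with no p as above, and Arg1 0.27 (SE 0.14, limma adjusted p = 0.217). The changes in Slc7a2 and Azin1 were not alike in each ablation. With and without anti-PD-1, Slc7a2 averaged 12.7 and 4.24 FPKM (cryo-thermal), 6.23 and 4.62 (radiofrequency) and 4.58 and 4.06 (cryoablation). Azin1 averaged 21.2 and 21.7, 23.6 and 19.8, and 24.9 and 18.7 FPKM in that order, so it did not rise with cryo-thermal therapy. Leaving out any 1 of the 18 tumours ended neither the Ass1 nor the Odc1 call. Without the 3 tumours with high hair follicle RNA Ass1 (0.94) and Slc7a2 (0.67) passed, and Odc1 (0.24, limma adjusted p = 0.0571) and Azin1 (0.24, limma adjusted p = 0.098) did not. With the erythroid level as a covariate 0 of the 4 passed, and Ass1 had 0.75 (limma adjusted p = 0.0859) and Odc1 0.23 (limma adjusted p = 0.115). Slc7a2 passed in 7 and Azin1 in 11 of the 18 fits without 1 tumour, with 0.51 to 0.73 and 0.17 to 0.23. The count was 2 without cryo-thermal with anti-PD-1 replicates 2 or 3, cryo-thermal replicate 3, cryoablation replicate 1 or radiofrequency ablation replicate 3.

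Whether the antibody's effect differed between ablations was tested as the effect with cryo-thermal therapy minus that with cryoablation. This difference equals cryo-thermal therapy against cryoablation with anti-PD-1 minus the same contrast without it. The first of these was known when the genes were chosen, so a call here is no independent evidence. Azin2 was the 1 gene of 9 that passed, with a difference of 1.15 (SE 0.17, limma adjusted p = 0.013), where 0.167% of all genes passed, 0.111% higher and 0.0556% lower. Nos2 had a difference of 1.35 (SE 0.64), given with no p as above, Slc7a2 of 1.18 (SE 0.41, limma adjusted p = 0.218), Arg1 of 0.93 (SE 0.34, limma adjusted p = 0.239) and Azin1 of -0.42 (SE 0.14, limma adjusted p = 0.196). The Azin2 difference did not pass without cryoablation with anti-PD-1 replicate 3, cryoablation replicate 1 or cryoablation replicate 3, with a highest limma adjusted p = 0.0539, and was 1.15 with limma adjusted p = 0.214 without the 3 tumours with high hair follicle RNA. A fit with erythroid level as covariate gave 1.30 (limma adjusted p = 0.0754). Against radiofrequency ablation the difference was 0.63 for Azin2 (SE 0.17, limma adjusted p = 0.323), 0.94 for Slc7a2 and 0.93 for Arg1, and 0 of 9 genes passed, with 3 at an unadjusted p under 0.05 and 0% of all genes past the threshold. Because the same tumours enter several of these comparisons, their values move together.

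Other genes of the pathway passed mostly in cryo-thermal therapy against cryoablation and in the mean effect of anti-PD-1. In the first of these 15% of all genes passed, 8.01% higher and 6.96% lower, so that 2 of 10, 1 of 7 carriers and 3 of 16 below are near that share. Of 10 genes tested among the other synthases and their cofactor supply, Gch1, the first enzyme of tetrahydrobiopterin synthesis, rose by 0.52 (limma adjusted p = 0.0246) and Ddah2, which breaks down methylated arginine, fell by 0.46 on the log2 scale (limma adjusted p = 0.0221), with a median of 0.01. Of 7 other carriers of cationic amino acids, Slc3a2, the heavy chain of several carriers, rose by 0.49 (limma adjusted p = 0.0325), and Slc7a1 had 0.42 (limma adjusted p = 0.0692). Of 7 genes of ornithine, proline and creatine metabolism 3 rose, Pycr1 by 0.69, Aldh18a1 by 0.54 and Gatm by 0.53. Of 16 genes of the polyamine pathway 1 rose, spermidine synthase Srm by 0.43 (limma adjusted p = 0.0121), and 2 fell, the antizyme Oaz2 and the salvage enzyme Mtap, while Sat1, which starts polyamine breakdown, had 0.25 (limma adjusted p = 0.165). The median of all genes was -0.01.

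When anti-PD-1 was added to cryoablation, where 4.31% of all genes passed, Srm rose by 0.37 (limma adjusted p = 0.048), Slc3a2 by 0.58 (limma adjusted p = 0.0365) and Pycr1 by 0.70 (limma adjusted p = 0.0423), and Pts, of tetrahydrobiopterin synthesis, fell by 0.41 on the log2 scale (limma adjusted p = 0.0418). In cryo-thermal therapy with anti-PD-1 against cryoablation with anti-PD-1 and against radiofrequency ablation with anti-PD-1, 0 genes of these 4 lists passed. Averaged over the ablations, where 10% of all genes passed, the antibody raised Srm, Eif5a, Slc7a1, Slc3a2 and Aldh18a1 by 0.23 to 0.33 and lowered Ddah2, Pts and Sat2, which had -0.29 to -0.24.

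Among genes of signals known to induce Nos2, Irf8 rose by 1.53, Irf1 by 1.29 and Ifng by 1.04 (limma adjusted p = 0.0165) after cryo-thermal therapy against cryoablation. Against radiofrequency ablation with anti-PD-1, cryo-thermal therapy with anti-PD-1 raised Ifng by 1.34 (limma adjusted p = 0.0362), the 1 gene of that list that passed. Of 9 tested genes of signals known to induce Arg1, Cebpb rose by 0.53 after cryo-thermal therapy against cryoablation (limma adjusted p = 0.0454), and Il4ra, part of the receptor for interleukins 4 and 13, had 0.19 (limma adjusted p = 0.499). Il4 was at 0 in 14 of 18 tumours and Il13 in 6, and neither passed the filter on low values.

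The genes most like each member were taken by the largest Pearson r over the 18 tumours among 11912 other protein coding genes, as a description with no p, since they were picked as the largest. For Nos2 they were Cd300lf, Il1rn, Glrx, Klre1 and Sbno2, with r from 0.936 to 0.948 (Spearman's rho 0.81 to 0.915). For Ass1 they were the leukocyte integrin chains Itgb2 and Itgal, the peptidase Lap3, the cytokine receptor chain Il2rg and the lectin Clec4n, with r from 0.961 to 0.967 (rho 0.957 to 0.979). For Arg1 they were F10, Cd300lf, Fcrlb, Sbno2 and Adam8, with r from 0.885 to 0.915 (rho 0.705 to 0.858), so that Cd300lf and Sbno2 stood in the lists of both Nos2 and Arg1. Arg2 was most like Il1b, Clec4e, Mxd1, Hcar2 and Il1r2 (r 0.828 to 0.904, rho 0.767 to 0.905). Odc1 was most like Pla1a, Fst, Pabpc1, H2aj and Cyc1 (r 0.92 to 0.955, rho 0.901 to 0.938). In the 15 tumours without those given cryo-thermal therapy with anti-PD-1, r was 0.818 to 0.943 for the Nos2 list, 0.925 to 0.956 for the Ass1 list and 0.686 to 0.795 for the Arg1 list. The tumours fall into treatment groups that these values share.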

How the data were processed

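Per the labels, TRIzol and DNase-treated silica columns gave the RNA, and a VAHTS Universal V6 kit the libraries, of 18 tumours in 6 groups of 3. The authors deposited FPKM values, 1 column per tumour, and the submitters' processing notes name HTSeq 0.11.2. Aligner, genome build, annotation and strand setting: not given in the sources used here. Counts were not analysed here. Relative depth was estimated from the steps between low values, using only ratios near 1, is approximate, and gave no interval.

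The scale of analysis, log2(FPKM + 1), understates changes of low genes such as Arg2. Genes with a mean of at least 0.5 FPKM were kept. One fit of group means in limma 3.58.1 (R 4.3.3) took in every tumour, with variances that follow the mean level, 2-sided tests, and Benjamini-Hochberg adjustment over all genes of each of 12 comparisons at a threshold of 0.05. SE is limma's. The procedure was checked on simulated data drawn independently for each gene. They hold no shifts of cell types shared by many genes, so the check says nothing of calls made by such shifts. With 3 against 3, an exact permutation test of 1 value cannot give a p under 0.1. The members, lists and comparisons were chosen with earlier results of these data known. Named genes are the 9 members, list genes past the threshold (up to 4 per list and comparison), 10 set genes, and the 5 genes most like each of 5 members. Some list genes that this rule names are not reported here. Alternatives were another pseudocount, no filter, a replicate block, array weights, scaling to the 75th percentile, covariates, tumours left out and fits of the groups compared. Python 3.11.15, pandas 2.3.3 and matplotlib 3.10.9 were used for other steps.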

Additional observations from a re-analysis of the deposited data

Results flagged for a closer look

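Azin2 was marked because the effect of anti-PD-1 differed between 2 ablations by a test of the difference itself. That test includes cryo-thermal therapy against cryoablation, both with anti-PD-1, a contrast known when the genes were chosen. The mark is therefore no independent evidence. The effect with cryo-thermal therapy minus that with cryoablation was 1.15 on the log2 scale (SE 0.17, limma adjusted p = 0.013). With cryo-thermal therapy the level was higher in 3 of 3 tumours given the antibody than in any without it, and with cryoablation it was lower in 3 of 3. The summed level of 8 liver genes was 2.17 to 21.3 FPKM after cryoablation with anti-PD-1 and 8.28 to 27.1 after cryoablation, against at most 2.44 elsewhere, and with that level as a covariate the Azin2 difference was 1.15 (limma adjusted p = 0.0437). The difference did not pass with the erythroid level as a covariate (1.30, limma adjusted p = 0.0754) or without the 3 tumours with high hair follicle RNA (1.15, limma adjusted p = 0.214).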

How the results depend on the processing

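The number of the 9 genes past the threshold moved with several settings. Counts that involve tumours given cryo-thermal therapy with anti-PD-1 may include Nos2, which is there as a description only. Those of cryo-thermal therapy against cryoablation, both with anti-PD-1, are descriptions as a whole. With array weights, whose estimate stopped before it converged, the counts were 5 in cryo-thermal therapy against cryoablation, 1 against radiofrequency ablation and in radiofrequency ablation against cryoablation, 6 in cryo-thermal against radiofrequency ablation with anti-PD-1, 7 when the antibody was added to cryo-thermal therapy, and 7 and 3 in the differences of that effect from cryoablation and radiofrequency ablation. With no filter on low values, which tests more genes, they were 3 in cryo-thermal against cryoablation with anti-PD-1, 0 against radiofrequency ablation with anti-PD-1, 1 in cryoablation with against without the antibody and 2 for its mean effect. With the erythroid level as a covariate they were 0 in cryo-thermal therapy against cryoablation, for anti-PD-1 added to cryoablation, for its mean effect and for its difference, 6 against radiofrequency ablation with anti-PD-1 and 2 for anti-PD-1 added to cryo-thermal therapy. With the liver level they were 0 in 4 comparisons that had 3 to 5 calls, and 2 for the mean effect. With the macrophage level, chosen after seeing the data, they were 0 in the 3 comparisons of cryo-thermal therapy that had calls. With the hair follicle level they were 0, 1 and 2 for anti-PD-1 added to cryoablation, added to cryo-thermal therapy and averaged. Without the 3 tumours rich in hair follicle RNA they were 3 in cryo-thermal against cryoablation with anti-PD-1, 0 for anti-PD-1 added to cryoablation and for the difference, 1 for anti-PD-1 added to cryo-thermal therapy and 2 for the mean. In fits of only the groups compared they were 0 and 1 in cryo-thermal therapy against cryoablation and against radiofrequency ablation, both with anti-PD-1. The causes were not tested beyond the fewer tumours or added genes of a setting. Leaving out 1 tumour gave 0 to 5 genes in cryo-thermal against cryoablation with anti-PD-1, 0 to 2 against radiofrequency ablation with anti-PD-1, 1 to 4 without the antibody against cryoablation, 0 to 2 for anti-PD-1 added to cryoablation, 0 to 1 added to cryo-thermal therapy and for the difference, and 2 to 5 for the mean.

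The pseudocount of 0.1 and the scaling to the 75th percentile left each count within 1.5 times. With that pseudocount Nos2 was no longer past the threshold in cryo-thermal therapy against radiofrequency ablation, both with anti-PD-1 (2.28). Only fold changes of the members with an unadjusted p under 0.05 or a size above their SE in the main fit were followed. Smaller ones, which change direction most easily, were not counted. Under alternatives that left out no single tumour, 738 kept their direction and side of the threshold, 76 no longer passed and 35 newly passed. The direction turned in 1, Slc7a2 in radiofrequency ablation with anti-PD-1 against cryoablation with anti-PD-1, at -0.0304 with the hair follicle level as a covariate. The replicate numbers are not said to mark a shared batch. Same-numbered tumours deviated together with r over 0.1 in 13 of 45 pairs, and 27 of 90 best matches had the same number. With the replicate block the count for cryo-thermal therapy against radiofrequency ablation, both with anti-PD-1, was 0 in place of 3, Nos2 among them. The folds were the same (limma adjusted p = 0.053 for Ass1 and for Azin2). The count was 4 against cryoablation with anti-PD-1, and 3 for the mean effect. FPKM without counts limit what can be said of low genes such as Arg2.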
